A study of Homo sapiens with 6 samples.

Results

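The oxidative phosphorylation genes are those that encode the subunits of the respiratory chain (complexes I to IV) and of ATP synthase (complex V). Members were chosen by gene symbol, from the prefixes of these subunits, with earlier results of these data known. Of the 30717 genes to which the transcripts were summed, 173 matched the prefixes, 62 were dropped as pseudogene symbols and 1 had fewer than 30 counts over the 6 libraries. The remaining 110 members comprised 13 mitochondrially encoded and 97 nuclear genes. MT-ATP6 and MT-ATP8 end in P and a digit, as the dropped symbols do, and were kept because their prefix is named in the choice. Grouped by symbol, the nuclear members were 37 of complex I, 4 of complex II, 9 of complex III, 16 of complex IV, 19 of complex V, 8 assembly factors of complex I (the NDUFAF genes) and 4 antisense or readthrough symbols. Not all in a group are structural subunits: that of complex V includes the inhibitor ATP5IF1, and that of complex IV includes COX7A2L. After a filter on low counts (10 counts or more in 2 or more libraries, and a sum of 30), 106 members were tested, of which 10 were mitochondrial and 96 nuclear.

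RNA was sequenced from T24 and UMUC3 (UM-UC-3), established human bladder cancer lines. The circular RNA circPTK2 was knocked down. There was 1 control library per line beside 2 knockdown libraries, which carry the siRNA numbers 1 and 2 in their titles. The titles name siRNA for the control as well, whereas the design text of the series names sh constructs, so the reagent is not settled. No treatment or time was stated, and separate cultures are not mentioned for the knockdown libraries, so p-values speak only of the spread between libraries, which may be technical. Total counts were 65111683 to 72362436 per library, with 55071837 to 60780176 assigned to named genes. The circular RNA shares exons with linear PTK2, so its knockdown could not be checked from these counts.

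The respiratory chain passes electrons from NADH (complex I) and succinate (complex II) through complexes III and IV to oxygen and pumps protons across the inner mitochondrial membrane, and ATP synthase uses the return of those protons to make ATP. Apart from complex II, each complex joins subunits made inside mitochondria from the mitochondrial genome with subunits encoded in the nucleus and imported. The mitochondrial genome is transcribed as long precursors from both strands that are cut at transfer RNAs, so its genes share their transcription, whereas each nuclear subunit has its own promoter.

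No member passed an adjusted p of 0.05 in any knockdown comparison with edgeR's quasi-likelihood test (Benjamini-Hochberg adjustment over all 20721 tested genes). That threshold was passed by 0.0145% of all tested genes in both lines together, 0.135% in T24, 0.647% in UMUC3 and 0.0579% in the difference between the lines' effects. At an unadjusted p under 0.05 stood 11, 20, 17 and 13 of the 106 members in the same order, against 11.6%, 12.5%, 16.8% and 13.5% of all tested genes. DESeq2 called 6 members in both lines together, 4 in T24, 6 in UMUC3 and 3 in the difference, against 4.76%, 4.65%, 8.2% and 5.41% of all tested genes. The values below are therefore levels and fitted differences, and calls by DESeq2 are given beside the members described.

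Before the levels, the annotation of the mitochondrial genes matters, because neighbouring coding sequences overlap. In GRCh38, MT-ATP8 and MT-ATP6 (subunits 8 and a of ATP synthase) share 46 bases, MT-ND4L and MT-ND4 (core subunits of complex I) share 7, and MT-ATP6 and MT-CO3 share 1. The overlaps are shown because reads in them belong to both genes of a pair; capitals mark the shared bases, read 5′ to 3′ on the plus strand from the GENCODE transcripts.
MT-ATP8, the last 100 bases, chrM:8473-8572: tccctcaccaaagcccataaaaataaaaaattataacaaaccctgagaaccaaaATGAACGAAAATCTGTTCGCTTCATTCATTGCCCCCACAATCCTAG
MT-ATP6, the first 100 bases, chrM:8527-8626: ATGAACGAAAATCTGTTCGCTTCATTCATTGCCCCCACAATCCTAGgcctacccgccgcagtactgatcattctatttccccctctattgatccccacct
MT-ND4L, the last 60 bases, chrM:10707-10766: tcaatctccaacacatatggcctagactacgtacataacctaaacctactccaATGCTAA
MT-ND4, the first 60 bases, chrM:10760-10819: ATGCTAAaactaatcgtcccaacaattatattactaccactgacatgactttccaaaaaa

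Despite its overlap, the ND4L and ND4 pair was counted in full, and MT-ND4 held 3112 CPM in the T24 control. CPM are counts scaled by the total in tested genes and TMM factors, so that libraries of unequal depth can be compared. The other overlapping genes were nearly empty. MT-ATP6 had 8 counts in every library and MT-CO3 (a catalytic core subunit of complex IV) 8 or 9. MT-ATP8 had 2 counts in 5 libraries and 28239 in the UMUC3 control. These 3 genes and the readthrough symbol ATP5MF-PTCD1 were the members left untested, and MT-ATP8 of the UMUC3 control enters the shares below. In the same table MTATP6P1 (chromosome 1, 633696 to 634376, plus strand), a nuclear pseudogene copy of MT-ATP6, had 22721, 26813 and 29405 counts in the T24 control and knockdown libraries 1 and 2. In UMUC3 it had 41991, 50079 and 58392. MTCO3P12, the copy of MT-CO3 beside it, had 32 to 106 counts. A near-identical copy and its source share reads, so the counts of MT-ATP6 and MTATP6P1 cannot be told apart, and none of the 3 empty genes is read as absent.

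The mitochondrially encoded members were higher in both T24 knockdown libraries than in the T24 control, 10 of 10, where 34.7% of all tested genes had both knockdown libraries above the control. In UMUC3, 2 of 10 were above the control in both knockdown libraries (35.6% of all tested genes) and 4 of 10 below (37.1%). The fitted log2 fold changes were 0.31 to 0.61 in T24, with a median of 0.38, and -0.18 to 0.18 in UMUC3, with a median of -0.07. The median over all tested genes was 0.00 in either line. In RNA from a whole culture, fewer cells of a type and less RNA per cell cannot be told apart.

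Complex I has the most mitochondrially encoded subunits, which form its membrane arm. MT-ND1 (chrM, 3307 to 4262) measured 839.9 CPM in T24 control cells, 1262 in knockdown 1 and 1304 in knockdown 2. In UMUC3, MT-ND1 had 3188 CPM in the control and 2667 and 2959 CPM after knockdown. Its T24 knockdown libraries therefore lay above their control and its UMUC3 knockdown libraries below theirs. The log2 fold change of MT-ND1 was 0.61 ± 0.08 (SE) in T24, with an edgeR adjusted p of 0.119, and -0.18 ± 0.08 in UMUC3. The difference between the lines' effects was 0.79 ± 0.12, with an edgeR adjusted p of 0.155.

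MT-ND5 showed a like pattern, with 1678 CPM in the T24 control, 2341 and 2415 CPM after knockdown, and a fold change of 0.50 ± 0.07 on the log2 scale. In UMUC3, MT-ND5 had 3302 CPM in the control and 3022 and 3238 CPM after knockdown. MT-ND2 measured 966 CPM in T24 control cells, 1303 in knockdown 1 and 1401 in knockdown 2, against 2710, 2393 and 2692 CPM in UMUC3. All 3 of these subunits had both T24 knockdown libraries above and both UMUC3 knockdown libraries below the control. MT-ND4 did so too, at 3112, 4037 and 4271 CPM in T24 and 7026, 6257 and 6844 CPM in UMUC3. MT-ND4L had 577, 796 and 840 CPM in T24, and its UMUC3 values of 1319, 1115 and 1355 CPM lay on both sides of the control.

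The 2 remaining complex I subunits were closer to their controls in UMUC3. MT-ND3 had 328, 417 and 411 CPM in T24 and 959, 978 and 938 CPM in UMUC3. MT-ND6, the sole protein gene on the other strand of the mitochondrial genome (14149 to 14673, minus strand), had 494, 632 and 596 CPM in T24 and 1136, 1140 and 1039 CPM in UMUC3. Thus the gene of the opposite strand lay above its T24 control in both knockdown libraries as the other 9 did.

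In complexes III and IV the T24 control was also the lowest T24 library. MT-CYB, the cytochrome b of complex III, had 1835, 2268 and 2288 CPM in T24 and 3514, 3567 and 3955 CPM in UMUC3. MT-CO1, the subunit that holds the oxygen-binding site of complex IV, had 10630, 12960 and 13770 CPM in T24 and 12550, 12070 and 12980 CPM in UMUC3. MT-CO2, which receives electrons from cytochrome c, had 3572, 4433 and 4569 CPM in T24 and 5034, 5499 and 5884 CPM in UMUC3. MT-CYB and MT-CO2 were the 2 mitochondrial members above the control in all 4 knockdown libraries, and MT-CO2 had a log2 fold change of 0.25 ± 0.07 in both lines together (edgeR adjusted p = 0.296).

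**Figure D1:**
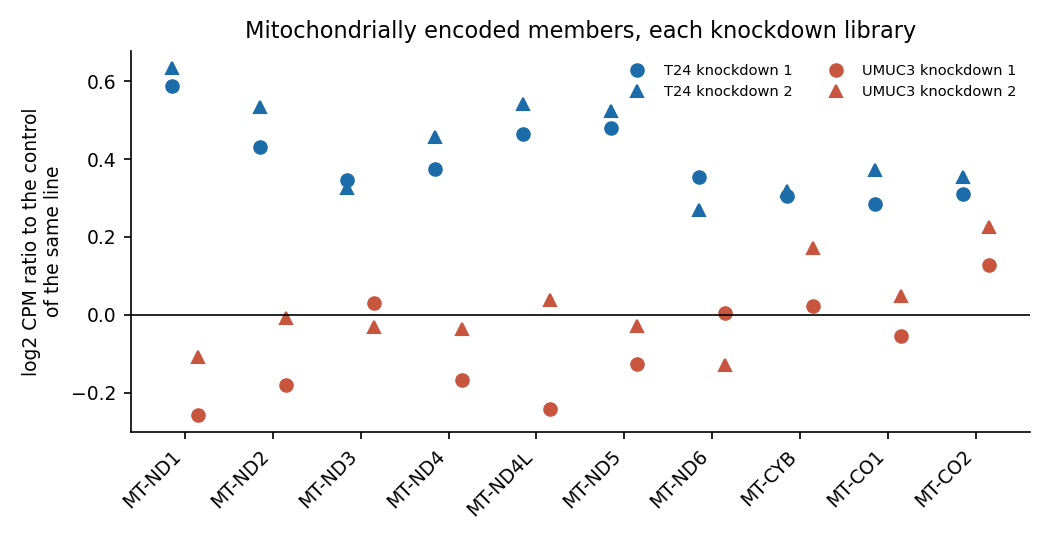
Log2 ratio of CPM (0.5 CPM added) in each knockdown library to the control of its line, for the 10 tested mitochondrial members along the x axis, with T24 in blue, UMUC3 in red and the siRNA number as symbol. All 20 T24 points lie above 0, and the UMUC3 points lie on both sides of it.

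Under 2 other settings some of these differences passed the threshold. Among the 8314 composition-stable genes, in which the share of counts that changed transcript was under 0.2 in both lines, edgeR gave MT-ND1 an adjusted p of 0.0314 and MT-ND5 0.0314 in T24, where 3.12% of those genes passed. The difference between the lines' effects passed for the same pair (edgeR adjusted p 0.0395 for MT-ND1 and 0.0497 for MT-ND5, where 3.1% of those genes passed). Each mitochondrial member has 1 transcript, so its shift is 0 and it enters this set by construction. The set was taken from these same libraries, so calls in it are not independent of the fit over all genes. DESeq2 called MT-ND1 (adjusted p 0.0196) and MT-ND5 (0.0486) in T24, and MT-ND1 (0.0343) in the difference.

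Summed over the 13 genes, mitochondrial members held 2.43% of the counts in named genes in the T24 control and 2.98% and 3.12% after knockdown. In UMUC3 they held 4.18%, 3.87% and 4.24%. The nuclear members held 0.917%, 0.812% and 0.799% in T24 and 1.22%, 1.17% and 1.12% in UMUC3, so every knockdown library was below its control in the nuclear share. The ratio of mitochondrial to nuclear counts was 2.65 in the T24 control and 3.67 and 3.90 after knockdown, and 3.42, 3.31 and 3.79 in UMUC3. On the log2 scale the T24 knockdown libraries exceeded the control by 0.51 (knockdown 1.92 ± 0.06, SD, n = 2 libraries). In UMUC3 the excess was 0.05 (knockdown 1.83 ± 0.14, SD, n = 2 libraries), with 1 library on each side of the control. An exact permutation test (two-sided, labels exchanged within each line) gave p = 0.222 for the ratio, 0.444 for the mitochondrial share and 0.111 for the nuclear share, and 0.333, 0.444 and 0.333 after Benjamini-Hochberg adjustment over these 3 measures. With 9 arrangements the smallest p possible is 0.111, so this design cannot reach 0.05.

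**Figure D2:**
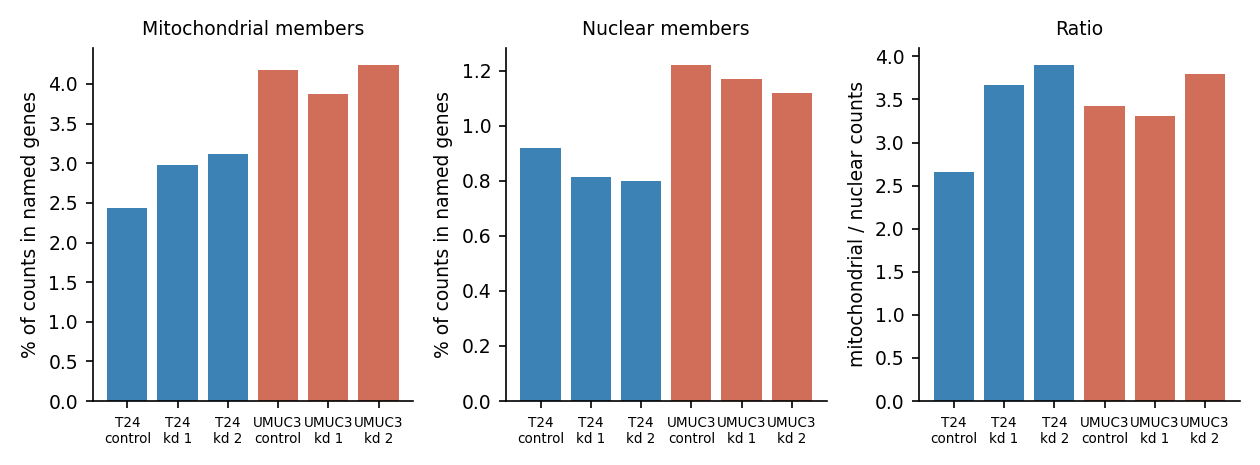
Bars give, for each of the 6 libraries, the percent of counts in named genes held by mitochondrial members, the same for nuclear members, and the ratio of the first to the second, on axes from 0 (kd, knockdown). The mitochondrial share is 2.43% in the T24 control bar and 3.12% in the T24 knockdown 2 bar, and the nuclear bars are lower than the control bar in all 4 knockdown libraries.

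The mitochondrial ribosomal RNAs, which are transcribed from the same strand, were read for comparison. MT-RNR2 measured 2026 CPM in T24 control cells, 3336 in knockdown 1 and 3326 in knockdown 2, and 3853, 3278 and 3166 CPM in UMUC3. MT-RNR1 had 385, 548 and 563 CPM in T24 and 446, 545 and 521 CPM in UMUC3. Together these RNAs held 0.244%, 0.38% and 0.381% of named counts in T24. Both are usually depleted or not captured in messenger RNA libraries, and how RNA was selected is not stated. Their level moved with that of the mitochondrial members in T24, and its part in the result was not tested. Rows without a gene held 14.9% of counts in the T24 control and 15.7% and 16.1% after knockdown, a further value that moved with the group and whose part was not tested.

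The nuclear members had negative medians in both lines, unlike the mitochondrial members in T24 and like them in UMUC3. Of 96, 32 (33.3%) were below the control in all 4 knockdown libraries, against 15.1% of all tested genes, and 7 were above it in all 4, against 13.3%. Within a line, 56 nuclear members lay below the control in both T24 knockdown libraries (37.3% of all tested genes) and 50 in both UMUC3 knockdown libraries (37.1%). The median log2 fold change was -0.14 in both lines together, -0.11 in T24 and -0.09 in UMUC3, beside 0.01, 0.00 and 0.00 over all tested genes. Shared controls tie the libraries of a line, so these counts are descriptions.

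By complex, 12 of 37 nuclear complex I members were below the control in all 4 knockdown libraries, where 15.1% of all tested genes were. So were 4 of 9 in complex III, 7 of 19 in complex V and 5 of 8 assembly factors of complex I. In complex IV 3 of 16 were (18.75%), near the share of all tested genes. None of the 4 complex II subunits was. With both lines together, the median log2 fold change was -0.12 for complex I, 0.02 for complex II, -0.06 for complex III, -0.14 for complex IV, -0.12 for complex V and -0.19 for the assembly factors. Within the lines, the complex IV median was 0.0006 in T24 and -0.004 in UMUC3, with 8 members above and 8 below 0 in each. Its 16 members include isoforms with few counts. For the 12 with a mean of at least 5 CPM the medians were 0.004 and -0.045, so -0.14 was not matched in either line.

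**Figure D3:**
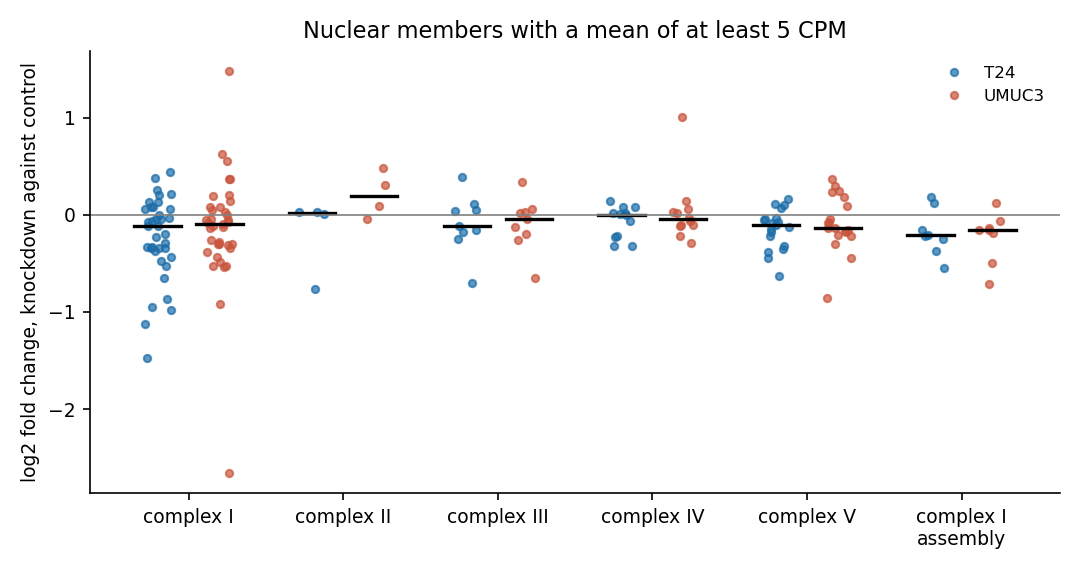
Each point is the fitted log2 fold change of 1 nuclear member with a mean of at least 5 CPM (89 members) in T24 (blue) or UMUC3 (red), by complex along the x axis, and the black line is the group's median. Medians lie between -0.21 and 0.20, and complex I has the widest spread, with its lowest point at -2.66 in UMUC3.

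Before single nuclear genes, the movement of reads between transcripts has to be given. For each gene the composition shift is the share of its counts that moved from some transcripts to others, taken between the 2 most different libraries of 1 line. It was at least 0.2 in either line for 41 of the 97 nuclear members. ATP5F1A, the alpha subunit of the catalytic head of ATP synthase, had a shift of 0.708 in UMUC3. There its transcript ENST00000590156 had 35404 counts in the control and 0 in both knockdown libraries, whereas ENST00000398752 had 14300, 47248 and 50352. The gene's level was nonetheless 902, 855 and 847 CPM. Among the 55 tested nuclear members with a shift under 0.2 in both lines, the median in both lines together was -0.12, and 18 were below the control in all 4 knockdown libraries. Among the other 41 the median was -0.15, and 14 were. Of all tested genes 15.1% were.

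UQCRQ (ENSG00000164405, chromosome 5, 132866560 to 132868031, plus strand), a small subunit of complex III, had the smallest p of all members in both lines together. It measured 131 CPM in T24 control cells, 80.2 in knockdown 1 and 80.5 in knockdown 2. In UMUC3, UQCRQ had 154 CPM in the control and 96.8 and 99.5 CPM after knockdown. Both pairs of knockdown libraries lay well below their control and close to each other. On the log2 scale the fold change was -0.68 ± 0.10 (SE) over both lines, -0.71 ± 0.10 in T24 and -0.65 ± 0.10 in UMUC3, with edgeR adjusted p of 0.136, 0.122 and 0.0962. Its composition shift was 0.052 in T24 and 0.0928 in UMUC3. Among the composition-stable genes edgeR's adjusted p was 0.0469, 0.0286 and 0.0216, where 0.758%, 3.12% and 7.94% of those genes passed. DESeq2 called UQCRQ in both lines together (adjusted p = 1.88e-12), in T24 (0.00121) and in UMUC3 (0.00168).

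The other complex III subunits were closer to their controls. UQCRFS1, the Rieske iron-sulfur protein, had 131, 112 and 108 CPM in T24 and 227, 192 and 188 CPM in UMUC3, a log2 fold change of -0.25 ± 0.10 (edgeR adjusted p = 0.412). UQCR10 had 75.6, 86.1 and 77.8 CPM in T24 and 74.0, 75.8 and 74.4 CPM in UMUC3. UQCRHL is a near-identical copy of UQCRH, so the reads of the 2 genes may be split between them. UQCRC1, a core subunit, measured 232 CPM in UMUC3 control cells, 299 in knockdown 1 and 288 in knockdown 2.

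In complex I, NDUFA7 (ENSG00000267855, chromosome 19, 8308768 to 8321396, minus strand), an accessory subunit, measured 23.4 CPM in T24 control cells, 10.95 in knockdown 1 and 10.6 in knockdown 2. In UMUC3 NDUFA7 had 29.5 CPM in the control and 16.1 and 15.1 CPM after knockdown. All 4 knockdown libraries were below the lower of the controls. On the log2 scale the fold change over both lines was -1.02 ± 0.16 (edgeR adjusted p = 0.145), and DESeq2 called it there (adjusted p = 7.37e-11), in T24 (0.000178) and in UMUC3 (0.00194). Its shift was 0.347 in T24 and 0.638 in UMUC3, so the sum over transcripts depends on how the reads were assigned.

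NDUFS1 (ENSG00000023228, chromosome 2, 206114817 to 206159603, minus strand), the largest subunit of complex I and part of its electron-accepting arm, had a shift of 0.146 and 0.0588. It had 153, 116 and 125 CPM in T24 and 136, 93.2 and 94.4 CPM in UMUC3. Its log2 fold change was -0.34 ± 0.11 in T24 and -0.53 ± 0.11 in UMUC3, with edgeR adjusted p of 0.344 and 0.134. Among composition-stable genes it passed in UMUC3 (edgeR adjusted p = 0.0394), and DESeq2 called it in both lines together (adjusted p = 0.0123) and in UMUC3 (0.0315). NDUFC2, an accessory subunit, had 189, 118 and 124 CPM in T24 and 112, 84.5 and 70.5 CPM in UMUC3, a log2 fold change of -0.59 ± 0.13 (edgeR adjusted p = 0.212, DESeq2 adjusted p = 0.00298). NDUFB9 had 72.6, 32.4 and 41.2 CPM in T24 and 179, 106 and 143 CPM in UMUC3, with a shift of 0.575 in T24 (DESeq2 adjusted p = 0.0496 in both lines together).

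Above its control in all 4 knockdown libraries was NDUFA5 (ENSG00000128609, chromosome 7, 123536997 to 123558255, minus strand), an accessory subunit, with 28.4, 37.3 and 36.7 CPM in T24 and 65.5, 83.2 and 85.9 CPM in UMUC3. Its log2 fold change was 0.38 ± 0.13 in T24 and 0.37 ± 0.13 in UMUC3 (0.38 ± 0.12 in both lines together, edgeR adjusted p = 0.364, DESeq2 adjusted p = 0.00333).

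A further pair of complex I subunits varied between the knockdown libraries of a line. NDUFS6, which carries a zinc site, had 83.7 CPM in the T24 control, 1.04 CPM in knockdown 1 and 59.0 CPM in knockdown 2. In UMUC3, NDUFS6 had 20.3 CPM in the control, 37.6 CPM in knockdown 1 and 1.51 CPM in knockdown 2. The low library is titled siRNA 1 in T24 and siRNA 2 in UMUC3, and both carry the number 2 in the name of their data column. Its fold changes have standard errors of 2.38 in T24 and 2.55 in UMUC3 and set no direction, and its shifts were 0.57 and 0.67. MRPL36, the neighbouring gene, chosen after its values were seen, had 26.8 to 32.9 CPM in T24 and 20.1 to 30.4 CPM in UMUC3. NDUFA13 had 62.2, 55.9 and 8.38 CPM in T24 and 31.4, 5.87 and 4.09 CPM in UMUC3, with shifts of 0.513 and 0.703.

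**Figure D4:**
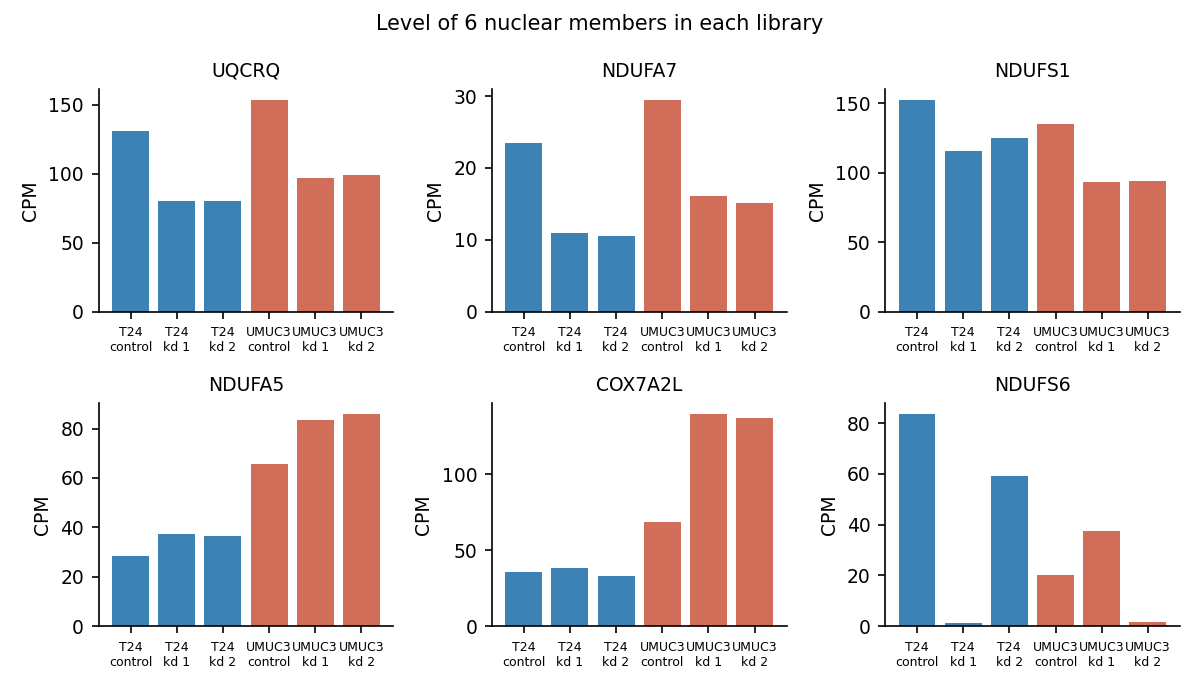
Bars give the CPM of UQCRQ, NDUFA7, NDUFS1, NDUFA5, COX7A2L and NDUFS6 in each of the 6 libraries, T24 in blue and UMUC3 in red, each axis starting at 0 (kd, knockdown). UQCRQ, NDUFA7 and NDUFS1 are lower and NDUFA5 is higher in all 4 knockdown bars than in the control of the line, COX7A2L is higher in both UMUC3 knockdown bars, and NDUFS6 is near 0 in 1 knockdown bar of each line.

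Complex II, the succinate dehydrogenase, has no mitochondrially encoded subunit. SDHA, its flavoprotein, had 246, 100 and 190 CPM in T24 and 94.9, 116 and 149 CPM in UMUC3, with shifts of 0.515 and 0.46. SDHB, its iron-sulfur subunit, had 99.7, 108 and 95.4 CPM in T24 and 153, 190 and 188 CPM in UMUC3. SDHC and SDHD, the membrane anchors, had log2 fold changes of 0.06 ± 0.13 and -0.02 ± 0.12 in both lines together. Their shifts in T24 were 0.290 and 0.293, and that of SDHC in UMUC3 was 0.317.

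In complex IV, COX7A2L, which has a known role in joining complexes III and IV, measured 68.8 CPM in UMUC3 control cells, 140 in knockdown 1 and 137 in knockdown 2. In T24 it had 35.3, 38.2 and 33.2 CPM, around its control, and its composition shift was 0.391 in T24 and 0.185 in UMUC3. Its log2 fold change was 1.01 ± 0.15 in UMUC3 (edgeR adjusted p = 0.0878, DESeq2 adjusted p = 0.000145). The difference between the lines' effects was -0.99, with an edgeR adjusted p of 0.209 and a DESeq2 adjusted p of 0.0277. COX7C, a small structural subunit, had 102, 78.7 and 85.6 CPM in T24 and 149, 135 and 143 CPM in UMUC3, with a shift of 0.216 in T24. COX7B had 88.2, 88.4 and 98.6 CPM in T24 and 120, 129 and 136 CPM in UMUC3.

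Complex IV also has isoform pairs of which 1 partner is typical of heart and muscle, lung, testis or hypoxic cells. The widespread partners had the larger counts in both lines. COX4I1 had 8664 to 10656 counts per library, COX6A1 10134 to 13330, COX8A 13367 to 19720 and COX7A2 3251 to 5471. COX7A1, the muscle partner of COX7A2, had 8 to 12 counts in T24 and 42 to 55 in UMUC3. COX6B2, a testis partner of COX6B1, had 0 to 20 counts in T24 and 19 to 47 in UMUC3. NDUFA4L2, a hypoxia-inducible relative of NDUFA4, had 8 to 23 counts in T24 and 0 to 12 in UMUC3. COX7B2, a testis relative of COX7B, had 0 counts in all T24 libraries and 174, 218 and 100 in UMUC3, so that UMUC3 was at least 58.1-fold higher against a floor of 3 counts per library. COX4I2, COX6A2 and COX8C were not among the 30717 genes, so they could not be analysed here.

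In complex V, ATP5F1B, the catalytic beta subunit, had the highest level per length of the nuclear ATP synthase genes (668 CPM per kb over all libraries), at 760, 720 and 719 CPM in T24 and 1850, 1644 and 1561 CPM in UMUC3. ATP5MC3, 1 of 3 genes for the same c-ring protein, had 147, 137 and 132 CPM in T24 and 291, 236 and 237 CPM in UMUC3. ATP5PB, of the peripheral stalk, measured 242 CPM in UMUC3 control cells, 297 in knockdown 1 and 298 in knockdown 2, with a shift of 0.635 there. Across the 19 nuclear members of complex V, 0 passed in edgeR or DESeq2 in either line. Of all tested genes, 0.647% in UMUC3 and 0.135% in T24 passed in edgeR, and 8.2% and 4.65% in DESeq2. At an unadjusted edgeR p under 0.05 stood 3 members in UMUC3 and 0 in T24, against 16.8% and 12.5% of all tested genes.

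Among the assembly factors of complex I, NDUFAF4 measured 64.4 CPM in UMUC3 control cells, 42.1 in knockdown 1 and 36.5 in knockdown 2, a log2 fold change of -0.71 ± 0.18 (edgeR adjusted p = 0.179, DESeq2 adjusted p = 0.0409). NDUFAF8 had 50.7, 38.4 and 31.1 CPM in T24 and 40.8, 33.9 and 23.8 CPM in UMUC3. NDUFAF3 was the one assembly factor above the control in all 4 knockdown libraries, at 53.9, 58.1 and 64.1 CPM in T24 and 27.4, 30.9 and 28.8 CPM in UMUC3.

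Over the 6 libraries, with each line centred on its own mean, NDUFS4 (Pearson r = 0.948) and ATP5MPL (r = 0.863) had log2 levels most like the summed mitochondrial level. The composition shift was 0.644 in T24 and 0.642 in UMUC3 for NDUFS4, and 0.261 and 0.333 for ATP5MPL. The sums of both genes therefore depend on how the reads were assigned to transcripts. Most nuclear members with a mean of at least 5 CPM had a negative r, the lowest at -0.988. The points share their libraries and depth, and n is 6 libraries, so these are descriptions.

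The lines differed at far more members than the conditions did. Between T24 and UMUC3, 58 of 106 members passed in edgeR (8 higher and 50 lower in T24), where 40.2% of all tested genes passed, 21.3% higher and 18.9% lower in T24. All 9 mitochondrial members that passed were lower in T24, with a median over the 10 of -0.81 on the log2 scale. MT-CO1 was the exception, at -0.02 ± 0.09. Of the nuclear members, 8 were higher and 41 lower in T24, with a median of -0.29, beside 0.02 over all tested genes. The 3 T24 libraries all lay below the 3 UMUC3 libraries for 9 of 10 mitochondrial and 44 of 96 nuclear members (25.1% of all tested genes), and all above for 14 nuclear members (27.2%).

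Lower in T24 by the widest margin among members with at least 5 CPM were NDUFAF4 (-2.07 ± 0.18), COX7A2L (-1.63 ± 0.24), NDUFB9 (-1.60 ± 0.20) and MT-ND1 (-1.40 ± 0.18), all as log2 differences with their SE. Composition shifts in T24 and UMUC3 were 0.391 and 0.185 for COX7A2L and 0.575 and 0.280 for NDUFB9. NDUFAF4 averaged 11.1 ± 1.06 CPM over the T24 libraries and 47.7 ± 14.8 CPM over the UMUC3 libraries (SD, n = 3 libraries of mixed condition). MT-ND1 averaged 1135 ± 257 CPM in T24 and 2938 ± 261 CPM in UMUC3. The edgeR adjusted p was 0.000708 for NDUFAF4 and 0.0025 for MT-ND1.

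Among members that passed, those higher in T24 by the widest margin were NDUFS4 (1.47 ± 0.14), ATP5IF1 (1.18 ± 0.16), NDUFAF3 (1.02 ± 0.13) and SDHC (0.87 ± 0.12). NDUFA13 (2.08 ± 0.80, edgeR adjusted p = 0.0914) and NDUFS6 (1.10 ± 1.5, edgeR adjusted p = 0.600) had values in this range without passing. NDUFS4, a complex I subunit, averaged 54.1 ± 4.73 CPM in T24 and 19.6 ± 0.841 CPM in UMUC3. ATP5IF1, the inhibitor that blocks ATP hydrolysis by ATP synthase, averaged 82.9 ± 7.78 CPM in T24 and 36.6 ± 4.74 CPM in UMUC3. In neither gene did the libraries of the lines overlap. Composition shifts in T24 and UMUC3 were 0.644 and 0.642 for NDUFS4 and 0.290 and 0.317 for SDHC, so these sums depend on how the reads were assigned. Lower calls in T24 were 12 of 37 in complex I, 1 of 4 in complex II, 5 of 9 in complex III, 10 of 16 in complex IV and 9 of 19 in complex V. Of all tested genes 18.9% were called lower in T24.

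Per length, a tested mitochondrial member had a median of 1527 CPM per kb in T24 and 3149 CPM per kb in UMUC3. The nuclear members had medians of 65.3 and 64.0 CPM per kb. The lengths are those of annotated transcripts averaged per gene, so levels compare genes only roughly.

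**Figure D5:**
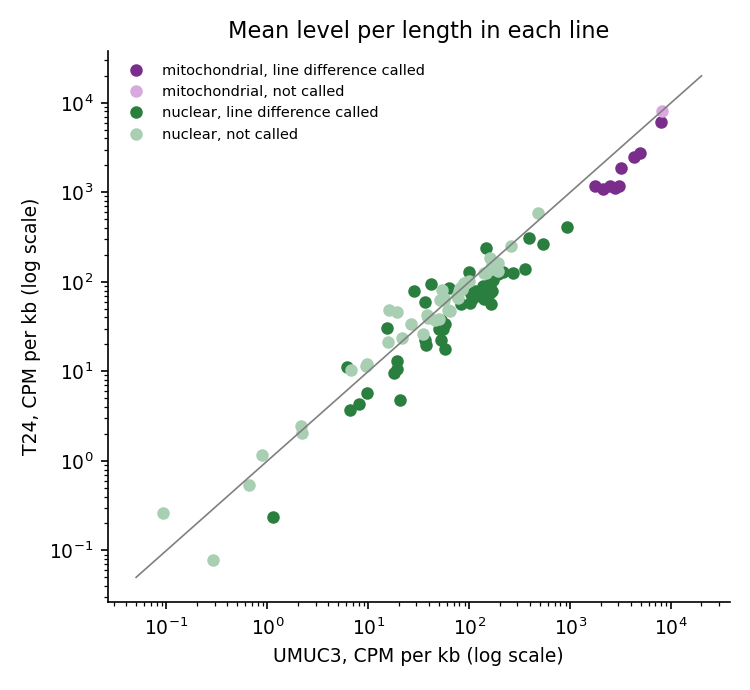
Each point is a tested member, with its mean CPM per kb in UMUC3 on the x axis and in T24 on the y axis (both log scales), mitochondrial members in purple and nuclear ones in green, darker where the line difference passed in edgeR. The grey line marks equal levels. The mitochondrial points lie at 1094 CPM per kb and above, and all 10 lie below the line, MT-CO1 close to it (8074 CPM per kb in T24 and 8129 in UMUC3).

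Nuclear promoters of these genes are known to share binding motifs for NRF1 and for ETS factors such as GABPA, so the sequences of members that lay below or above the control in all 4 knockdown libraries are shown. They were chosen after their values were seen. RefSeq promoter sequences (GRCh38.p14, 250 bases before to 50 after each start) matched 75 of the 97 nuclear members by symbol. Each line gives the 200 bases before a RefSeq start, with the motif in capitals. Each marked motif lies inside the GENCODE span of its gene given above, so it is not upstream of every counted transcript.
UQCRQ, lower in all 4 knockdown libraries, chr5:132866442-132866641, plus strand, ETS motif CCGGAAG: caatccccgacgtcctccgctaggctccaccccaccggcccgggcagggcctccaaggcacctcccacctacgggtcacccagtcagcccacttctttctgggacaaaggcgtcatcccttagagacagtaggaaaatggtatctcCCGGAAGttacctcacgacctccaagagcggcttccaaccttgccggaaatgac
NDUFS1, lower in all 4, chr2:206159445-206159644, minus strand, ETS motif in reverse: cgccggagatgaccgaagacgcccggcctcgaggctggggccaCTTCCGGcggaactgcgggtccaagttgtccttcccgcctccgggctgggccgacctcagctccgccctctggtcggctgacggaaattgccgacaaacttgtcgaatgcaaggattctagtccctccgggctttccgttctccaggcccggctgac
NDUFA5, higher in all 4, chr7:123557819-123558018, minus strand, NRF1 motif GCATGCGC in reverse: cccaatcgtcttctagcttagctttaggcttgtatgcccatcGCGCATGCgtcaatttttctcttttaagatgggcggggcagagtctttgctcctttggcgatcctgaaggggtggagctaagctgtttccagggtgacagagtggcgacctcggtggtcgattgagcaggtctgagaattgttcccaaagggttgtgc

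On both strands, CCGGAAG was found in the promoters of 22 of the 75 matched members (29.3%) and of 12.2% of the 27305 genes in the table. GCATGCGC, the core of the NRF1 motif, was in 16 members (21.3% against 3.68%), and none of the 4 motifs searched contains another. The YY1 motif CCATCTTG was in 8 (10.7% against 2.68%), and TATAAA in 6 (8% against 14%). A match is a description of letters and says nothing of binding in these cells.

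Pathway lists outside the members gave few calls. With edgeR 1 of 12 genes of mitochondrial DNA transcription and maintenance passed in UMUC3 and 0 in T24. That gene, TWNK, the mitochondrial helicase, measured 8.72 CPM in UMUC3 control cells, 46.4 in knockdown 1 and 40.2 in knockdown 2 (log2 fold change 2.31 ± 0.21, edgeR adjusted p = 0.0474), with a shift of 0.942 there. No gene passed in a knockdown comparison among 19 of mitochondrial RNA processing, 9 tested regulators of biogenesis, 46 further assembly factors, 22 electron carriers and exchangers, 17 of the citric acid cycle and pyruvate dehydrogenase, 78 mitochondrial ribosomal proteins or the 2 mitochondrial ribosomal RNAs. Of the 205 genes tested on all these lists, edgeR gave 17 an unadjusted p under 0.05 in both lines together, 24 in T24 and 55 in UMUC3 (11.6%, 12.5% and 16.8% of all tested genes), and DESeq2 called 8, 9 and 22 (4.76%, 4.65% and 8.2%). LRPPRC, which stabilises mitochondrial messenger RNA, had 122, 166 and 172 CPM in T24 and 428, 328 and 386 CPM in UMUC3 (T24 log2 fold change 0.48 ± 0.13, edgeR adjusted p = 0.296). HIGD1A, an assembly factor of the chain, had 123, 18.4 and 21.9 CPM in T24 and 59.8, 22.6 and 16.7 CPM in UMUC3. On the log2 scale its fold change over both lines was -2.14 ± 0.27 (edgeR adjusted p = 0.0915).

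Between the lines these lists held more calls. Of the 19 genes of mitochondrial RNA processing, 13 were lower and 0 higher in T24, and of the 78 mitochondrial ribosomal proteins 24 were lower and 6 higher, where 18.9% of all tested genes were lower and 21.3% higher. PPARGC1B, a coactivator of mitochondrial biogenesis, had 0.74 to 1.40 CPM in T24 and 50.7 to 84.7 CPM in UMUC3 (log2 difference -5.99 ± 0.19, edgeR adjusted p = 2.6e-05). ETFA, which passes electrons from fatty acid oxidation to the chain, had 152 to 157 CPM in T24 and 0 counts in all 3 UMUC3 libraries, where 3 counts would be 0.05 to 0.0545 CPM.

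The cell lines were set against marker lists. Epithelial keratins were high in T24 (KRT8 1482 to 1692 CPM) and low in UMUC3 (81.5 to 91.0 CPM), and the summed epithelial list of 6 genes was 2993 to 3244 CPM in T24 and 169.7 to 187.0 CPM in UMUC3. CDH1 was at 0 in all libraries but T24 knockdown 2 (0.135 CPM), and EPCAM had 2.02 to 2.39 CPM in T24 and 0 in UMUC3. KRT18 went from 836 CPM in the T24 control to 425 and 390 CPM and KRT7 from 171 to 480 and 708 CPM after knockdown, beside the T24 mitochondrial difference, and their part in it was not tested. PTPRC was at or under 0.0674 CPM in every library. The endothelial gene CDH5 had 64.5 to 75.5 CPM in T24 and 0 in UMUC3. CD68, a macrophage marker, measured 28.2 CPM in UMUC3 control cells, 54.2 in knockdown 1 and 51.2 in knockdown 2, and its part in the UMUC3 values was not tested. The immune list summed to 7.53 to 9.73 CPM in T24 and 29.2 to 54.9 CPM in UMUC3, and the stromal, endothelial and blood list to 66.8 to 77.9 and 3.81 to 7.92 CPM.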

How the data were processed

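The authors deposited raw read counts per transcript (136953 transcripts, 6 libraries), without normalisation. The submitters' processing notes list the hg38 build with StringTie 1.3.3b, HISAT2 2.1.0 and FastQC 0.11.5, without roles. Strand and RNA selection are not stated, so antisense or overlapping reads cannot be told apart. The 15038 transcripts without a gene (14.9 to 16.1% of counts) were left out, and the others were summed to 30717 genes. Fits used edgeR 4.0.16 in R 4.3.3 (TMM, robust quasi-likelihood). Terms for line and knockdown gave the fit over both lines and the line difference, and each line and the difference between effects with 4 groups, in which the lone control is assumed to vary like the paired libraries. Adjusted p is Benjamini-Hochberg, at 0.05. DESeq2 1.42.0 was an alternative. The fits were tested on simulated data. Members, lists and alternatives were chosen with earlier results of these data known. Named are all mitochondrial members, per complex the 2 highest and 2 lowest of each comparison that lie on 1 side of the control at a mean of at least 5 CPM, isoform pairs, and from each list up to 2 genes that passed in each direction or else the 2 with the smallest p; some genes that meet the rule are given only by counts. NDUFB9, NDUFC2, NDUFS1, ATP5F1B and the pseudogene copies fall outside the rule or part of it and were chosen after their values were seen. 1 member is counted but not reported by name here.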

Additional observations from a re-analysis of the deposited data

How the results depend on the processing

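Calls of members depended on the tool and the genes tested. In both lines together, T24, UMUC3 and the difference, DESeq2 called 6, 4, 6 and 3 of 106 members. Of all tested genes it called 4.76%, 4.65%, 8.2% and 5.41%. On composition-stable genes, with 55 nuclear and 10 mitochondrial members, edgeR called 1, 3, 2 and 2 members. Of all composition-stable genes 0.758%, 3.12%, 7.94% and 3.1% passed there. With all genes edgeR called 0 members in each comparison. Without a filter edgeR called 1, 0, 2 and 1 members, and 8, 43, 224 and 35 of all 30717 genes. With at least 100 counts it called 1 member in UMUC3 and 1 in the difference, and 125 and 5 of all 17679 genes. MT-ATP8, which rests on the UMUC3 control, was among the members called in every comparison with a call under these 2 filter settings. The cause of the other differences was not tested.

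Leaving out 1 library at a time left a line with 1 knockdown library or with no control, so calls in the knockdown comparisons are not given. Between the lines the calls ranged from 48 members, as without T24 knockdown 1, to 59, as without the T24 control. Of all tested genes, 6052 of 20170 and 7222 of 20183 passed in these 2 fits. The mitochondrial median log2 fold change ranged from -0.0662 (without the T24 control) to 0.377 (without the UMUC3 control) in both lines together, from 0.364 to 0.416 in T24 and from -0.0891 to -0.0149 in UMUC3. The nuclear median ranged from -0.139 to -0.0832 in both lines together, from -0.109 to -0.0592 in T24 and from -0.127 to -0.0409 in UMUC3. Without a line's only control, the fit over both lines takes its knockdown effect from the other line alone. Both ends of the mitochondrial range in both lines together are therefore single-line values, as is the nuclear -0.0832 (without the T24 control). The ranges within a line all keep that line's single control, so they do not cover its spread. The T24 gain in mitochondrial share was 0.615 percentage points of named counts and 0.491 of all counts. Without a knockdown library it was 0.545 to 0.685.

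In both lines together, values without 1 library ranged from -0.178 to 0.611 for MT-ND1, -0.0895 to 0.484 for MT-ND2, -0.0987 to 0.417 for MT-ND4, -0.0925 to 0.505 for MT-ND4L, -0.0747 to 0.503 for MT-ND5, -0.0578 to 0.313 for MT-ND6 and -0.0001 to 0.33 for MT-CO1. The low end of each was the fit without the T24 control, which gives the UMUC3 effect alone. These ranges thus include single-line values and do not measure the stability of an estimate over both lines. The UMUC3 values ranged from -0.0531 to 0.0527 for MT-CO1, -0.0276 to 0.0319 for MT-ND3, -0.239 to 0.0426 for MT-ND4L and -0.1246 to 0.0073 for MT-ND6. In UMUC3, MT-CO1 was 0.0039 without a filter and 0.0105 among composition-stable genes, and MT-ND3 0.0054 and 0.0123. Between the lines MT-CO1 ranged from -0.0838 to 0.0991 and was 0.046 among composition-stable genes. None of these values that changed sign passed the threshold. No T24 value of a tested mitochondrial member changed sign under an alternative that was run. All of these kept the single T24 control, without which the T24 comparison cannot be fitted. They therefore cannot show how far the T24 values rest on that library.

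Same-numbered knockdown libraries of the lines did not deviate together (Pearson r = -0.013 by title number, across 11139 genes, which are not independent). By column number the T24 pair is exchanged, so r is the same value with its sign reversed, 0.013. With a replicate block by title number 0 members passed in both lines together and 50 between the lines, and by column number 0 and 49. Of all 20721 tested genes, 0 passed in both lines together with either block, so the 0 says nothing of the members in particular. Between the lines 6847 genes passed with the block by title number and 6811 with that by column number.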

Other observations

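Other nuclear copies of mitochondrial genes on chromosome 1 also held counts. MTCO1P12 had 11142 counts in the T24 control and 12890 and 13091 after knockdown, and MTND2P28 had 8236, 12264 and 12921. MTCO2P12 had 9 to 27 counts in T24 and 8821 to 11044 in UMUC3, whereas MT-CO2 itself differed between the lines by -0.39 ± 0.07 on the log2 scale. How reads were divided between a copy and its source was not tested.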
